A study of Mus musculus with 2 samples.

Results

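The 33 genes described here encode the parts of tight junctions, desmosomes and adherens junctions: 18 claudins, 7 other tight junction genes and 8 desmosome or adherens genes. They were taken by name from the 20284 genes that an array probe could be paired with, and each had a probe. RNA of mouse embryonic stem cells (ESCs) was compared on 2 two-colour Agilent arrays. Both groups were strain B6C3F1, at passage 26, and grew with LIF on fibroblast feeders whose division had been stopped with mitomycin C. The reference group was genotype WT, labelled with Cy3, and the other carried HDAC6 overexpression, labelled with Cy5. The labels used here do not say how HDAC6, a mainly cytoplasmic deacetylase of tubulin, was introduced or whether the cells were 1 clone. Both arrays had the same dye orientation, so an effect of the dye and one of the genotype cannot be told apart for any single probe. The labels name the arrays as biological replicates without stating separate cultures, so the p-values may measure only a technical spread.

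Tight junctions seal the space between neighbouring epithelial cells near their apex. Claudins form the strands of the seal, and some of them leave pores for selected ions. Occludin and its MARVEL relatives join the strands, and scaffold proteins such as ZO-1 tie them to actin. Desmosomes link the keratin filaments of adjacent cells through desmosomal cadherins, plakophilins, plakoglobin and desmoplakin, while adherens junctions use classical cadherins such as E-cadherin. Undifferentiated mouse ESCs grow as compact, epithelial-like colonies held together by E-cadherin, and they express a set of these junction genes.

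The promoter sequences of 4 genes are given first, because these genes are examples of both directions of change described here. Cldn4 rose, Cldn5 and Ocln had the largest falls among genes measured well in both channels in their classes, and Epcam fell although it is a typical gene of ESC colonies. Each sequence is the 250 bases before the start of the gene, 5′ to 3′ on the gene's own strand, from RefSeq on build GRCm38.p6. Capitals mark the E-box CACCTG, which Snail and Zeb repressors bind, or the Grainyhead motif AACNGGTT, on either strand. The Cldn4 window is chr5:134946935-134947184 on the minus strand. The Epcam window is chr17:87635729-87635978 on the plus strand. The Cldn5 window is chr16:18776597-18776846 on the plus strand, and the Ocln window is chr13:100552719-100552968 on the minus strand.
Cldn4: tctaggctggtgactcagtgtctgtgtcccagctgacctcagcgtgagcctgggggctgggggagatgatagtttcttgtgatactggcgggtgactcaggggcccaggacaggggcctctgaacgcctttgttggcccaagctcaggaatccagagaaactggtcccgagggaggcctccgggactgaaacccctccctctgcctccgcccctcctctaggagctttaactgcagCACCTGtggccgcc
Epcam: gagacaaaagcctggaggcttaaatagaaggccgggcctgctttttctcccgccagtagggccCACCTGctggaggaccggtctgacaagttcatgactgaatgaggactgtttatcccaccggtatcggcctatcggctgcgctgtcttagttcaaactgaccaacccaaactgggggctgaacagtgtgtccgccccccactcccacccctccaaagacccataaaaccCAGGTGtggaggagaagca
Cldn5: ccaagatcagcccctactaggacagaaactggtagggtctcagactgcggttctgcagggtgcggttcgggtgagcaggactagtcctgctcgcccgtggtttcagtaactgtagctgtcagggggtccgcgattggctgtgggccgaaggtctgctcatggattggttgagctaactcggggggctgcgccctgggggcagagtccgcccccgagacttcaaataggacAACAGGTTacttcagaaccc
Ocln: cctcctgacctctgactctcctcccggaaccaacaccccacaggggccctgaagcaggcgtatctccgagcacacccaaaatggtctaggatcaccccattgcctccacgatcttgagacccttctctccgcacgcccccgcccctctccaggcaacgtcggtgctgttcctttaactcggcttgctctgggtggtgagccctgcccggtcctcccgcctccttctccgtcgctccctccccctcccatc

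In these windows the E-box lay 14 bases before the Cldn4 start, and 187 and 19 bases before the Epcam start. The Grainyhead motif lay 20 bases before the Cldn5 start, and the Ocln window held none of the motifs searched. Such a window, before the most upstream start of a gene, was used for 24 of the 33 genes. Members on chromosome 18 (Dsg2 and Dsc2) were left out, but its genes stayed among the 27025 compared. No window was used either for Cldn8, Cldn9, Cldn23, Marveld3, Cdh1, Cdh3 and Pkp2. The splits by direction below therefore lack Dsg2 among the risen genes, and Cldn23, Marveld3, Pkp2 and Dsc2 among the fallen ones. Of the 24, 5 held CACCTG (20.8%), against 17.1% of 27025 genes with a window of the same length. The 5 were Cldn4, Cldn6, Tjp3, F11r and Epcam. The first 4 rose and Epcam fell in the comparison below, so 4 of the 6 risen genes with a window and 1 of the 9 fallen ones held the motif. The GATA motif (AGATAA or TGATAA, either strand) was in 4 of the 24 windows (16.7%) and in 16.9% of all. It was in 1 of the 6 risen genes and 1 of the 9 fallen ones. The Grainyhead motif was in 2 (8.33%), those of Cldn5 and Cgn, and in 1.74% of all. It was in 0 of the 6 risen genes and 1 of the 9 fallen ones. The median GC content was 57.8% in the 24 windows and 52% in all. These matches are descriptions of letters, not of bound sites, and the splits by direction were not tested.

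The values below are the processed signals of each channel in intensity units, and the log2 ratio of the overexpression signal over the WT signal on the same array. A gene was represented by its brightest probe and was tested when both arrays read that probe well above background in the same channel. This held for 27 of the 33 genes and for 16069 genes in all. A gene was called when limma gave an adjusted p under 0.05 against no change, with Benjamini-Hochberg adjustment over all genes tested (n = 2 arrays throughout). Between 68.8 and 69.6% of all spots were well above background in each channel of each array, and no spot was saturated. Hdac6 itself had WT signals of 16389 and 17806 and overexpression signals of 18275 and 17344, with a mean log2 ratio of 0.060 ± 0.14 (SD) that was not called (limma adjusted p = 0.639). The sources used here do not say whether its probe reads the introduced HDAC6, so it is no check of the labels, and every direction refers to the channels as labelled.

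Of the 27 junction genes tested, 13 fell and 7 rose in the cells with HDAC6 overexpression. The 13 are 48.1% of those tested, where 29.9% of all genes tested fell. The 7 are 25.9%, where 21.2% of all genes rose. Under median centring of the raw signals, 12 junction genes fell and 7 rose, where 29.9% and 30.4% of all genes did. After loess normalization of the raw signals, 14 fell and 6 rose, where 34.5% and 22.1% of all genes did. The median log2 ratio of the 27 was -0.25 (-0.17 on replicate 1 and -0.34 on replicate 2), and that of all genes was -0.06. Both arrays gave a measured fall of 2-fold or more for 4 genes (Cldn1, Cldn5, Cldn23 and Ocln) and a rise of that size for 1 (Dsp). Among all genes, 4.39% fell and 3.03% rose by that much. For Cldn1 the overexpression signals were not well above background, and its fall was bounded only at 1.39-fold or more. The arrays gave the same sign for 24 of the 27 genes, and the median SD between arrays was 0.10. Against a change of 1.5-fold (limma treat), 6 genes were called lower and 1 higher, and 13 calls were lost. Of all genes tested, 5.86% were called lower and 4.15% higher against that change. Cldn1, Cldn14 and Cldn23, all among the 6 called lower, passed the filter only through the WT channel and so had to come out lower. Without them, among genes above background in both channels, 10 of 24 junction genes fell and 7 rose, with a median of -0.12. Of all such genes, 31.2% fell and 22% rose. At least 2-fold lower on both arrays were 2 of the 24 junction genes and 551 of all 15421 such genes.

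**Figure D1:**
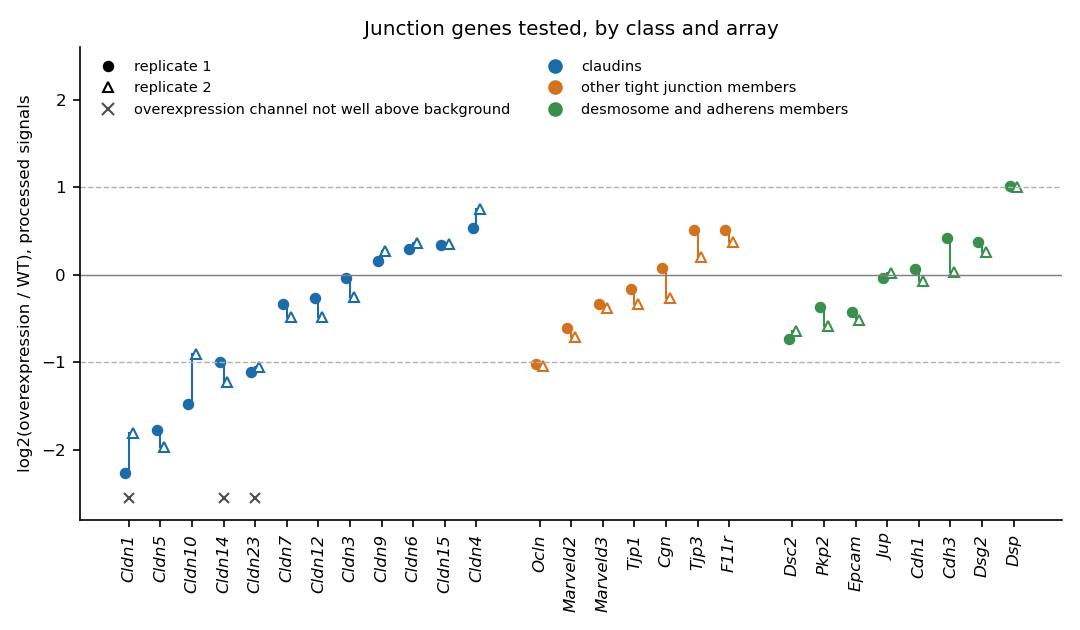
Log2 ratio of overexpression over WT (vertical axis) for the 27 junction genes tested, by class, with filled circles for replicate 1, open triangles for replicate 2 crosses where the overexpression channel was not well above background and dashed lines at 2-fold changes. The claudins reach from -2.04 to 0.64, the other tight junction genes from -1.03 to 0.44 and the desmosome and adherens genes from -0.69 to 1.01 (means of both arrays).

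The claudins moved in both directions. Of 12 tested, 7 fell (Cldn1, Cldn5, Cldn7, Cldn10, Cldn12, Cldn14 and Cldn23), 3 rose (Cldn4, Cldn6 and Cldn15), and Cldn3 and Cldn9 were not called. The shares are 58.3% fallen, against 29.9% of all genes, and 25% risen, against 21.2%, and 3 of the 7 fallen had to come out lower. Their median log2 ratio was -0.39, with -0.30 and -0.49 on the 2 arrays. Among genes above background in both channels, 4 claudins fell and the median was -0.15. Bulk RNA cannot tell fewer cells of a type from less RNA per cell, and this holds for every gene here.

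Cldn5, the main claudin of the endothelial barrier, fell most among the claudins measured in both channels. Its WT signals were 1318 and 1269, and its overexpression signals were 386 and 324. The log2 ratios of -1.77 and -1.97 gave a 3.66-fold decrease (mean -1.87 ± 0.14 SD, limma adjusted p = 0.000184). Its ratio lay at the 1.09 percentile of all genes tested, and its mean was -1.72 after loess normalization of the raw signals. Of 6 endothelial markers tested beside it, 4 fell (66.7%) and 2 rose (33.3%), where 29.9% and 21.2% of all genes did. Kdr, a VEGF receptor, fell 2.14-fold, and Cdh5, the cadherin of endothelial junctions, rose 2.09-fold. The part of endothelial-like cells in the Cldn5 result was not tested.

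Cldn10, which forms ion-selective pores in kidney and other epithelia, had WT signals of 221 and 204 and overexpression signals of 79.2 and 109. It fell 2.29-fold (log2 -1.48 and -0.91, mean -1.20 ± 0.41 SD, limma adjusted p = 0.00205). The arrays differed more for Cldn10 than for any other junction gene tested. Its mean was -0.82 after loess normalization of the raw signals with an offset of 50 added to both channels.

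The other claudins with ratios under -1 were dim. Cldn1, a claudin of the epidermal barrier, had WT signals of 58.6 and 58.0, with overexpression signals of 12.2 and 16.6 that were not well above background. Its measured log2 ratios were -2.27 and -1.80 (mean -2.04), but with the dim channel set to the lowest signal counted as above background, it was at least 1.39-fold lower. Cldn14, a claudin of the inner ear and kidney, had WT signals of 66.7 and 72.3 and overexpression signals of 33.5 and 30.8. It was at least 1.65-fold lower, with a measured mean of -1.11. Cldn23, a less studied claudin, had WT signals of 93.9 and 93.0 and overexpression signals of 43.5 and 44.6. Its measured mean was -1.08, and as its overexpression signals lay above that lowest signal, no separate bound can be given. For these 3 genes the size depends on how background is handled. With normexp and loess the means were -0.64, -0.58 and -0.54, but the offset of 50 added there by itself shrinks the ratios of dim probes.

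The other claudins that were called were well above background in both channels. Cldn4, a sealing claudin of simple epithelia, rose, with WT signals of 9643 and 9095 and overexpression signals of 13930 and 15241. Both overexpression values were above both WT values, and the increase was 1.56-fold (log2 0.53 and 0.74, mean 0.64 ± 0.15 SD, limma adjusted p = 0.00424). A second Cldn4 probe gave log2 ratios of 0.39 and 0.74. Cldn6, a claudin of early embryonic epithelia and pluripotent cells, rose from 10805 and 10868 to 13211 and 13966, a 1.25-fold increase (mean log2 0.33 ± 0.051 SD, limma adjusted p = 0.029). Cldn15, a cation pore claudin of the intestine, rose from 2654 and 2717 to 3366 and 3470, a 1.27-fold increase (mean log2 0.35 ± 0.0071 SD, limma adjusted p = 0.0225). In Cldn4, Cldn6 and Cldn15 the channels did not overlap. How many of all genes tested did the same was not counted, so this adds no weight to their calls.

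Cldn7, a claudin that binds EpCAM at the basolateral membrane, fell from 10226 and 10508 to 8124 and 7501, a 1.33-fold decrease (mean log2 -0.41 ± 0.11 SD, limma adjusted p = 0.0162). Cldn7 lies on chromosome 11, whose 1295 genes above background in both channels had a median log2 ratio of -0.51. That median was the lowest of the chromosomes that carry a junction gene tested, and its part in the Cldn7 result was not tested. Cldn12, a broadly expressed claudin, fell from 7035 and 8138 to 5829 and 5816 (mean log2 -0.38 ± 0.15 SD, limma adjusted p = 0.0248).

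Cldn3 and Cldn9 were not called. Cldn3, a sealing claudin, had WT signals of 4964 and 5735 and overexpression signals of 4850 and 4800 (mean log2 -0.15 ± 0.16 SD, limma adjusted p = 0.272). Its gene is next to Cldn4 on chromosome 5 with no coding gene between them, and Cldn4 rose. Cldn9, a claudin of the inner ear, had a mean log2 ratio of 0.21 ± 0.084 (SD, limma adjusted p = 0.104) and lies next to Cldn6 on chromosome 17 in the same way.

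The other 6 claudins were not tested. Cldn2, a cation and water pore claudin, was not well above background in either channel on either of its 2 probes. The same held for Cldn8 and Cldn19, claudins of the distal nephron among other sites, for Cldn16, which acts in renal magnesium uptake, and for Cldn18, a claudin of stomach and lung. Cldn11, the claudin of myelin and Sertoli cells, was above background only in the WT channel of replicate 1, where its signal was 51.2 against 8.47 with overexpression. On replicate 2 its signals were 34.2 and 15.1, both not well above background.

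**Figure D2:**
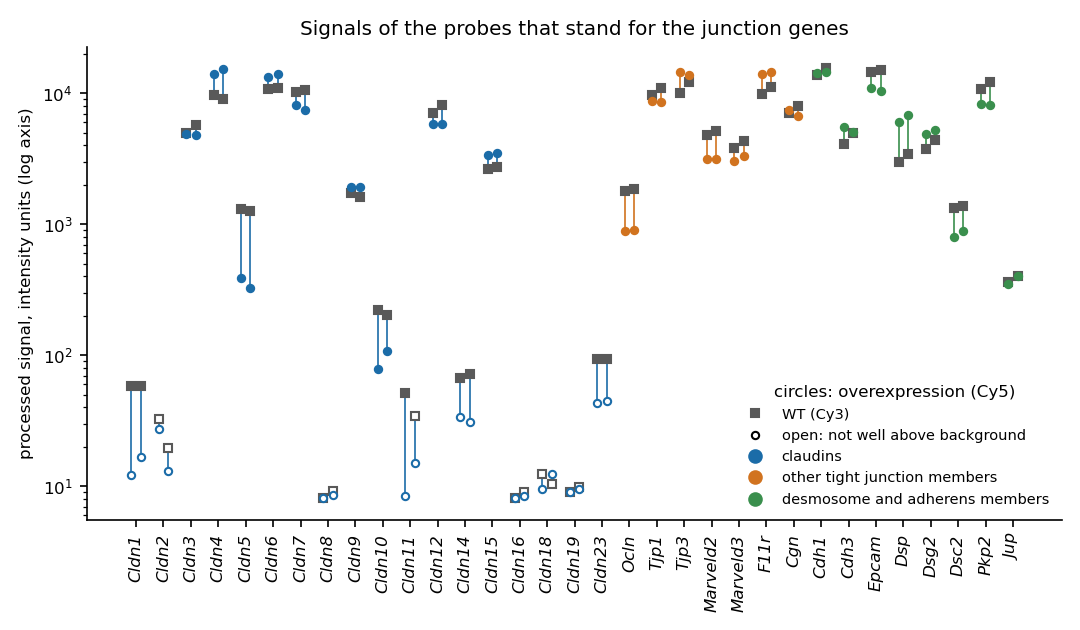
Processed signals (vertical log axis, intensity units) of the probe that stands for each junction gene, with squares for WT (Cy3), circles for overexpression (Cy5) and open symbols where a signal was not well above background. The overexpression signals of Cldn1, Cldn14 and Cldn23 are open, while Cldn5 falls from 1318 and 1269 to 386 and 324 within the measured range.

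Among the 7 other tight junction genes, all tested, 3 fell (Ocln, Marveld2 and Marveld3), 2 rose (Tjp3 and F11r) and 2 were not called (Tjp1 and Cgn). The shares are 42.9% fallen, against 29.9% of all genes, and 28.6% risen, against 21.2%. The median log2 ratio was -0.25. The 3 that fell are the family of MARVEL-domain membrane proteins, occludin, tricellulin and MARVELD3, which sit in the strands beside the claudins.

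Ocln, which encodes occludin, had WT signals of 1783 and 1858 and overexpression signals of 881 and 901. It fell 2.04-fold (log2 -1.02 and -1.05, mean -1.03 ± 0.020 SD, limma adjusted p = 0.000699), and a second probe gave -0.95 and -1.14. Marveld2, which encodes tricellulin at the contacts of 3 cells, had WT signals of 4803 and 5184 and overexpression signals of 3141 and 3163. It fell 1.58-fold (mean log2 -0.66 ± 0.071 SD, limma adjusted p = 0.00278). Ocln and Marveld2 are neighbours on chromosome 13 with no coding gene between them, on a chromosome whose median log2 ratio was -0.08. Marveld3 fell from 3828 and 4327 to 3046 and 3334, a 1.28-fold decrease (mean log2 -0.35 ± 0.033 SD, limma adjusted p = 0.0219). A second Marveld3 probe, for another transcript, gave a larger fall of 0.82 and 0.96 on the log2 scale. Marveld3 lies on chromosome 8, where the median over 827 genes was -0.25, and the part of that shift in its result was not tested.

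F11r, which encodes the adhesion molecule JAM-A, rose from 9834 and 11151 to 14012 and 14481. The increase was 1.36-fold (mean log2 0.44 ± 0.095 SD, limma adjusted p = 0.0117). F11r is on chromosome 1, whose 863 genes had a median of 0.24, and the part of that shift was not tested. Tjp3, the scaffold ZO-3, rose from 10111 and 12117 to 14427 and 13892, a 1.28-fold increase (log2 0.51 and 0.20, mean 0.36 ± 0.22 SD, limma adjusted p = 0.0426). The call was lost when dim probes were not filtered (adjusted p = 0.0656). Tjp1, the central scaffold ZO-1, had log2 ratios of -0.17 and -0.34 and was not called (limma adjusted p = 0.0757), but it was called lower after normexp and loess (-0.29, adjusted p = 0.0218). Cgn, the cytoplasmic linker cingulin, had log2 ratios of opposite sign, 0.07 and -0.26 (limma adjusted p = 0.515).

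The 8 desmosome and adherens genes were all tested, and they split, with 2 risen (Dsp and Dsg2), 3 fallen (Dsc2, Pkp2 and Epcam) and 3 not called (Cdh1, Cdh3 and Jup). The shares were 25% risen and 37.5% fallen, against 21.2% and 29.9% of all genes. Their median log2 ratio was -0.0066, near the -0.06 of all genes. Its sign differed between the arrays (0.015 and -0.028) and turned to 0.045 under median centring.

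Dsp, which encodes desmoplakin, the plaque protein that anchors keratin filaments, had the largest increase of the 27. Its WT signals were 3008 and 3409, and its overexpression signals were 6051 and 6848. The increase was 2.01-fold (log2 1.01 on each array, SD 0.0013, limma adjusted p = 0.000745). The probe was printed 10 times on each array, and the log2 ratios of these copies had SDs of 0.021 and 0.024. A second Dsp probe, not well above background in WT, gave 1.41 and 1.01.

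The desmosomal cadherins went opposite ways. Dsg2, desmoglein 2, rose from 3785 and 4388 to 4893 and 5249, a 1.24-fold increase (mean log2 0.31 ± 0.079 SD, limma adjusted p = 0.0347), and a second probe gave 0.21 and 0.50. This call was lost after normexp with loess (adjusted p = 0.0518), with median centring (0.0775) and without the filter on dim probes (0.0573). Dsc2, desmocollin 2, fell from 1328 and 1376 to 801 and 882, a 1.61-fold decrease (mean log2 -0.69 ± 0.063 SD, limma adjusted p = 0.00244). Both genes lie on chromosome 18 with 6 coding genes between them.

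Of the plaque genes beside Dsp, Pkp2, plakophilin 2, fell from 10700 and 12249 to 8279 and 8165, a 1.39-fold decrease (mean log2 -0.48 ± 0.15 SD, limma adjusted p = 0.0115). Jup, plakoglobin, which serves both desmosomes and adherens junctions, had WT signals of 361 and 400 and overexpression signals of 352 and 406. It was not called (mean log2 -0.0073 ± 0.039 SD, limma adjusted p = 0.954), while the median of its chromosome, 11, was -0.51.

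Cdh1, which encodes E-cadherin, was not called, with WT signals of 13701 and 15447 and overexpression signals of 14331 and 14637. The log2 ratios were 0.065 and -0.077 (mean -0.0059 ± 0.10 SD, limma adjusted p = 0.965). Of the 10 printed copies, the 10 and 9 used on the arrays had SDs of 0.021 and 0.037. Under median centring of the raw signals, which does not correct for brightness, the mean was 0.33 and was called higher (adjusted p = 0.0112). Cdh3, P-cadherin, the neighbour of Cdh1 on chromosome 8, had ratios of 0.41 and 0.028 that were not called (limma adjusted p = 0.176). Epcam, an adhesion molecule of epithelia and ESCs, fell from 14650 and 14917 to 10901 and 10380, a 1.39-fold decrease (mean log2 -0.47 ± 0.068 SD, limma adjusted p = 0.00865). Under median centring its mean was -0.24 and the call was lost (adjusted p = 0.0544).

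**Figure D3:**
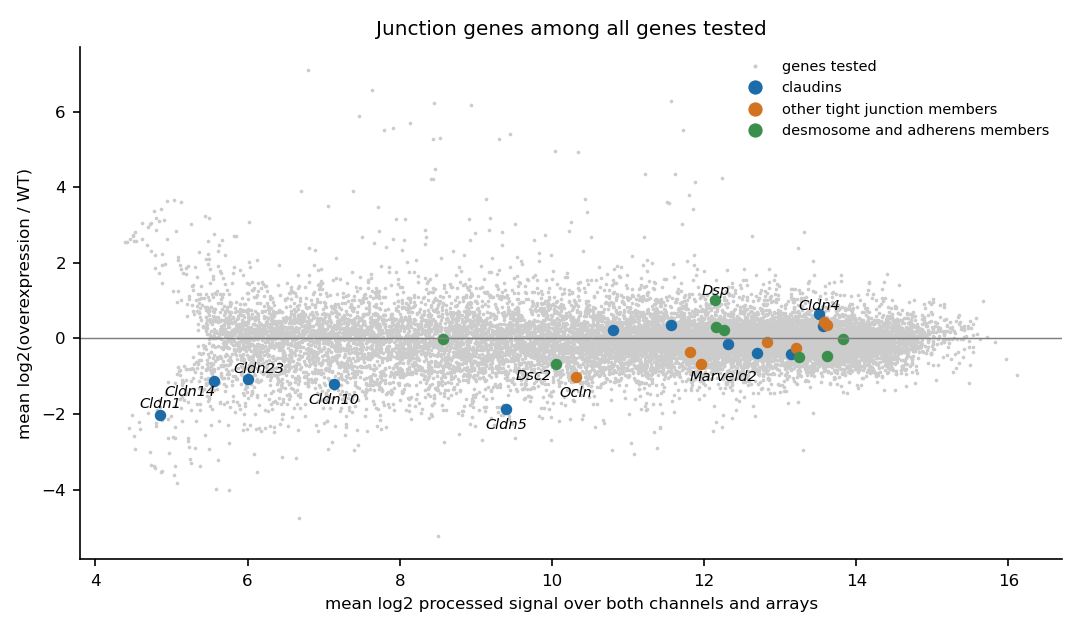
Mean log2 ratio of overexpression over WT (vertical axis) against mean log2 processed signal (horizontal axis) for the 16069 genes tested (grey), with the junction genes coloured by class. Cldn5 at -1.87 and Ocln at -1.03 lie at middle brightness, while Cldn1, Cldn14 and Cldn23 lie at the dim end, where the spread of all genes is wider.

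Further genes of the same structures were counted from lists. Of 24 tested tight junction and polarity genes outside the 33 (31 listed), 7 fell and 2 rose, with a median log2 ratio of -0.13. The fallen were 29.2%, near the 29.9% of all genes, and the risen were 8.33%, where 21.2% of all genes rose. Pard6a and Pard3, polarity proteins of the apical complex, fell by 0.73 and 0.61 on the log2 scale, and Mpdz, a scaffold that binds claudins, fell by 0.64. Crb3, the apical polarity protein Crumbs 3, rose by 0.66. Pard6a and Pard3 lie on chromosome 8. Of 19 tested desmosome and adherens genes outside the 33 (23 listed), 4 fell (21.1%) and 2 rose (10.5%), with a median of 0.019. Evpl, the plakin envoplakin, fell by 1.18 and Cdh2, N-cadherin, fell by 0.67. Pkp1, plakophilin 1, rose by 0.48, and Nectin4, dim in WT, was at least 1.48-fold higher. Evpl lies on chromosome 11.

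Gap junction genes encode channels that connect neighbouring cells. Of 9 tested, 6 rose (66.7%) and 1 fell (11.1%), with a median of 0.49. Among all genes tested, 21.2% rose and 29.9% fell. The connexin genes Gjb5 and Gjb2 rose by 0.84 and 0.66 on the log2 scale. Of the 5 simple epithelial keratins, to which desmoplakin links, Krt7 (1.23), Krt8 (0.47) and 1 other rose (60%). Krt19 (-1.23) and Krt20 (a 2.14-fold decrease), both on chromosome 11, fell (40%). Of 20 transcription factors of epithelial and mesenchymal states, 13 rose (65%) and 2 fell (10%), with a median of 0.59. The endoderm factors Foxa2 and Hnf4a rose by 4.93 and 3.90. Snai1, a repressor that binds CACCTG, rose by 1.13. Snai2, Zeb1 and Zeb2 are named here for the same motif after their values were seen. Snai2 and Zeb1 rose by 1.05 and 0.61, and Zeb2 was not called (mean -0.30, limma adjusted p = 0.0955).

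Markers of other cell types moved beside these results, where 21.2% of all genes tested rose and 29.9% fell. Of 18 primitive and visceral endoderm markers, 17 rose (94.4%) and 1 fell (5.56%), with a median log2 ratio of 3.21. Their summed signal was 24960 and 28419 in WT and 186620 and 192590 with overexpression. Cubn, an endocytic receptor of visceral endoderm, rose 45.7-fold, Gata4 rose 31.1-fold, and Ttr, not above background in WT, was at least 31.3-fold higher. Foxa2 and Hnf4a stand in this list as well as among the transcription factors.

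All 16 fibroblast markers rose, where 21.2% of all genes did. Their median was 1.13 (0.91 and 1.40 on the 2 arrays), and none was below background in either channel. Their summed signal was 133270 and 117450 in WT and 252190 and 325700 with overexpression. Col1a2, Lum and S100a4 rose by 1.71, 1.52 and 1.68. The share of feeder RNA was not measured otherwise.

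Of 10 tested trophectoderm markers (11 listed), 8 rose (80%) and 0 fell (limma, median 0.82), among them Tead4 (1.28), Cdx2 (1.22) and Krt7. Among all genes, 21.2% rose and 29.9% fell. Of 14 pluripotent ESC markers, 6 rose (42.9%) and 4 fell (28.6%, near the 29.9% of all genes), with a median of 0.25. Tbx3 and Tfcp2l1 rose 6.50-fold and 2.83-fold, and Tdgf1 fell 2.16-fold. No pluripotent marker was below background in either channel. Of 7 neural markers, 5 fell (71.4%) and 1 rose (14.3%), with a median of -0.77. Sox1, Pax6 and Tubb3 fell by 2.25, 2.09 and 0.94. The part of any of these cell types in the junction results was not tested.

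**Figure D4:**
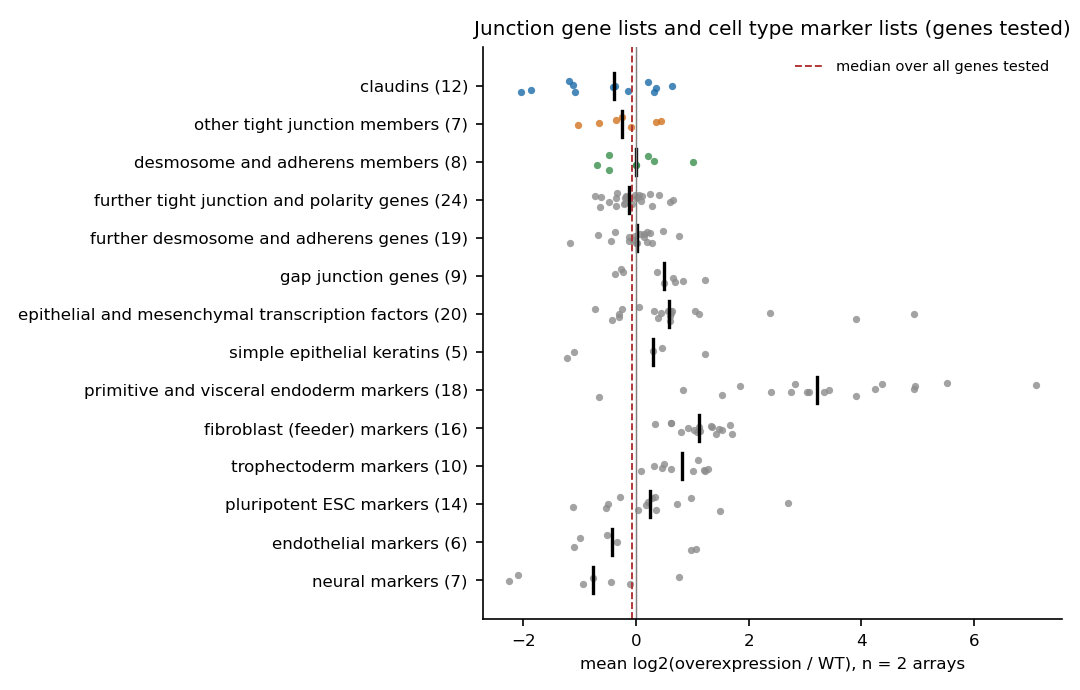
Mean log2 ratio of overexpression over WT (horizontal axis, 2 arrays) for each gene tested, by list, with a black bar at each list's median, the number tested in brackets and a dashed line at the median of all genes. The 3 junction classes have medians of -0.39, -0.25 and -0.0066, the endoderm markers 3.21 and the fibroblast markers 1.13.

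The choice of background correction and normalization bore most on the dim claudins. The normexp settings add an offset of 50 to both channels, which by itself shrinks the ratios of dim probes. The smaller ratios of these claudins are therefore no independent measure of their size. Cldn5, Ocln and Dsp had means of -1.87, -1.03 and 1.01 from the processed signals and -1.72, -1.02 and 0.98 after normexp and loess. Cldn1 moved from -2.04 to -0.64 and Cldn10 from -1.20 to -0.82. The count of junction genes at least 2-fold lower on both arrays went from 4 to 2 and the count higher from 1 to 0, with both normexp settings. Among all genes tested, the lower count went from 706 to 454 with loess and to 501 with median centring. The higher count went from 487 to 288 with loess and to 509 with median centring.

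**Figure D5:**
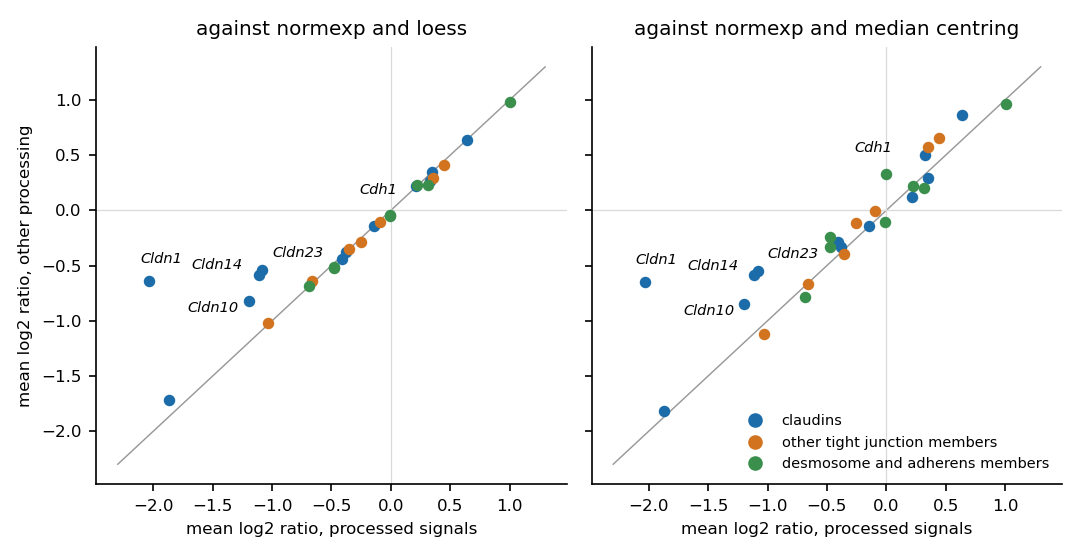
Mean log2 ratio of each junction gene after normexp with loess (left, vertical axis) or with median centring (right, vertical axis) against that from the processed signals (horizontal axis), with a line where both are equal. Cldn1, Cldn10, Cldn14 and Cldn23 lie above the line in both panels, and Cdh1 moves to 0.33 under median centring.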

How the data were processed

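Per the file headers, the authors read the scans with Agilent Feature Extraction 11.5.1.1, and the deposited files hold spot and background intensity values and processed intensity values, with background subtracted and dyes normalized by a linear and a lowess step. The deposited log10 ratio equals that of the processed signals to within 3.78e-07. The deposited series table holds log2 values of WT over overexpression (r and slope of -1 against the processed ratios), with column medians of -0.0074 and 0.062.

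Outlier-marked spots (269 and 313) were left out and spots of a probe averaged. Of 55681 probes, 26762 had 1 symbol, 0 several and 28919 none in a RefSeq table (GRCm38.p6). Probe coordinates are not printed because the array design used another assembly. limma 3.58.1 (R 4.3.3; lmFit and eBayes, intercept only, two-sided) had 1 residual and 4.6 prior degrees of freedom, with a typical SE of 0.094. The precision is limited by the number of arrays. A dim channel was set to the higher of its own signal and the lowest signal called well above background.

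Members and lists were chosen with earlier results of these data known. All members are named. Of other junction lists, up to 4 genes, and of marker lists, up to 3, with the largest absolute log2 ratio among those called are named, except some that are not reported here. Alternatives were normexp (offset 50) with loess or median centring, the series table, other filters on dim probes, the mean over probes, outlier spots kept, a test against 1.5-fold and each array alone. The deposited p-values were not used.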

Additional observations from a re-analysis of the deposited data

How the results depend on the processing

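Using the deposited series table, the mean over probes or the outlier-marked spots changed no call of the 27 genes. The series table holds the same ratios with the sign turned, so it could not change a call. Only 6 of the 33 members have several probes, so the mean over probes left most values as they were. With normexp and loess, 2 genes were at least 2-fold lower and 0 higher, 1 desmosome or adherens gene was called higher and that class had a median of -0.043. With median centring, these were 2 lower, 0 higher and a median of 0.045, the medians of all junction genes and of the other tight junction genes were -0.14 and -0.11, and Cdh1 was at 0.33. Without the filter on dim probes, the medians of all junction genes and of the claudins were -0.15 and -0.26, and 1 other tight junction gene and 1 desmosome or adherens gene were called higher. There 15 junction genes were called lower, 9 of them claudins, and 5 higher, where 22.5% and 17% of all genes were. The members that this setting added were dim. With genes above background in both channels only, 3 claudins left the test, 2 genes were at least 2-fold lower, the median of all junction genes was -0.12, and 4 claudins were lower with a median of -0.15. Against 1.5-fold, 1 gene was higher and 6 lower: 0 claudins and 0 other tight junction genes higher, 1 other tight junction gene lower, and 1 desmosome or adherens gene higher and 0 lower. Of all genes, 4.15% were higher and 5.86% lower in that test. Leaving out 1 array moved the desmosome and adherens median between -0.028 and 0.015. It moved Cdh1 between -0.077 and 0.065, Cgn between -0.26 and 0.072, and Jup between -0.035 and 0.020. The causes of the differences between settings were not tested. With 1 array no test could be made, so no counts of calls are given there. The test itself pairs both groups within each array, so no further fit with a replicate block was made. With the 95th percentile of probes not above background as the floor, the bounds of Cldn1 and Cldn14 were 1.49 and 1.78-fold, and Cldn23 had no separate bound.

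The limits are the number of arrays, the single dye orientation and the dim signals. Of all genes tested, 51.2% were called.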
